A study of Mus musculus with 4 samples.

Results

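Cd209a-positive dendritic cells of the mouse liver were taken from 4 single-cell RNA libraries by a gate on unique molecular identifier (UMI) counts. A barcode was a member if it had at least 2 UMIs of Cd209a, at least 10 of Cd74, none of Xcr1, Clec9a, Cd3e or Cd79a, and at most 2 of C1qa, C1qb and C1qc together. Of 28199 barcodes kept, 359 were members. The control library held 37 of them, the low-AFP library 44, the high-AFP library 90 and the HCC (hepatocellular carcinoma) library 188. Sets of 4 values below follow that library order. The cells were selected on their levels of the gate genes, which are therefore described but not compared.

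The study followed liver cancer development in obese C57BL/6 mice fed a diet abbreviated CD-HFD. Livers were perfused with collagenase, and purified parenchymal cells were mixed in equal parts with live-sorted non-parenchymal cells before loading on 10x Genomics 3' chemistry. The control library came from liver on control diet, and the low-AFP library from liver on CD-HFD with a low label for AFP (alpha-fetoprotein). The high-AFP library is a control diet library by its title and a CD-HFD library by its file name, so it is named here by its AFP label. The HCC library was a suspension made from the tumour region, and its diet is not stated. All titles give 15 months, while the age field gives 17 months. The number of animals behind each library is not stated. Each group was 1 library, so no test was possible, and every difference below describes these libraries only. Intervals are exact at 95% and cover counting error only.

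Conventional dendritic cells take up antigen, carry it on MHC class II molecules and prime T cells. The type 2 subset serves mainly CD4 T cells, depends on the growth factor receptor Flt3 and carries Sirpa and the lectin Clec10a. Cells derived from monocytes can take on much of this programme under inflammation while keeping monocyte genes such as Csf1r and Lyz2. Cd209a, a C-type lectin, is found on both kinds, and the liver normally holds few of either.

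Members were deeper than other immune barcodes, with medians of 8431, 10976.5, 8337 and 12466.5 UMIs against 5092.5, 8234, 7172 and 5645 UMIs among all kept barcodes with a UMI of the leukocyte gene Ptprc. Pairs of libraries shared 3 to 29 kept barcodes, at most 0.541% of either library. Hepatocyte RNA was found in the members in unequal amounts. The 12 hepatocyte markers summed to 8494, 5262, 13968 and 717 counts per 1000000 nuclear-encoded UMIs (CPM), lowest in HCC. A single high-AFP member held 12.4% hepatocyte-marker UMIs.

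The gate cut through a continuous range of Cd209a. In HCC, 46 barcodes met every other condition with 1 Cd209a UMI, 26 members had exactly 2, and 162 had 3 or more. Klrd1 was at 446 CPM in those just outside and 662 CPM in those just inside, and a Flt3 UMI was found in 52.2% and 80.8% of them. In control and high-AFP Klrd1 went the same way, from 199 to 699 CPM and from 292 to 702 CPM. In low-AFP Klrd1 was the other way, at 413 CPM in 12 barcodes outside and 329 CPM in 6 inside. There 83.3% on either side had a Klrd1 UMI. In control, 7 barcodes stood just outside and 6 just inside, with a Flt3 UMI in 28.6% and 66.7%.

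Genes of conventional dendritic cells were found in the members in unequal shares. A UMI of Flt3, the receptor named above, was found in 64.9%, 63.6%, 58.9% and 80.3% of members. T cells of the same libraries, whose median depths were 4214.5, 4602, 3994 and 4465 UMIs, gave 1.31%, 1.06%, 2.25% and 1.60%. With every cell thinned to 2000 UMIs, the shares of members with Flt3 were 18.9%, 18.2%, 15.6% and 21.8%, against at most 1.14% of T cells. The 4 intervals overlapped, the highest running from 16.1% to 28.4% and the lowest from 8.77% to 24.7%. Clec10a, which binds galactose-bearing glycans, was seen in 40.5%, 27.3%, 33.3% and 29.3% of thinned members and in at most 0.592% of T cells. Sirpa, an inhibitory receptor for CD47, was seen in 29.7%, 27.3%, 33.3% and 25%. Zbtb46, a transcription factor of conventional dendritic cells, was sparse at 10.8%, 13.6%, 6.67% and 6.91%. Irf4, a factor of type 2 cells, was seen in 13.5%, 6.82%, 6.67% and 7.98%, against 2.14% to 3.80% of T cells. Mgl2, a lectin of one type 2 subset, was found in 16.2%, 31.8%, 21.1% and 13.8% of members even at full depth.

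**Figure D1:**
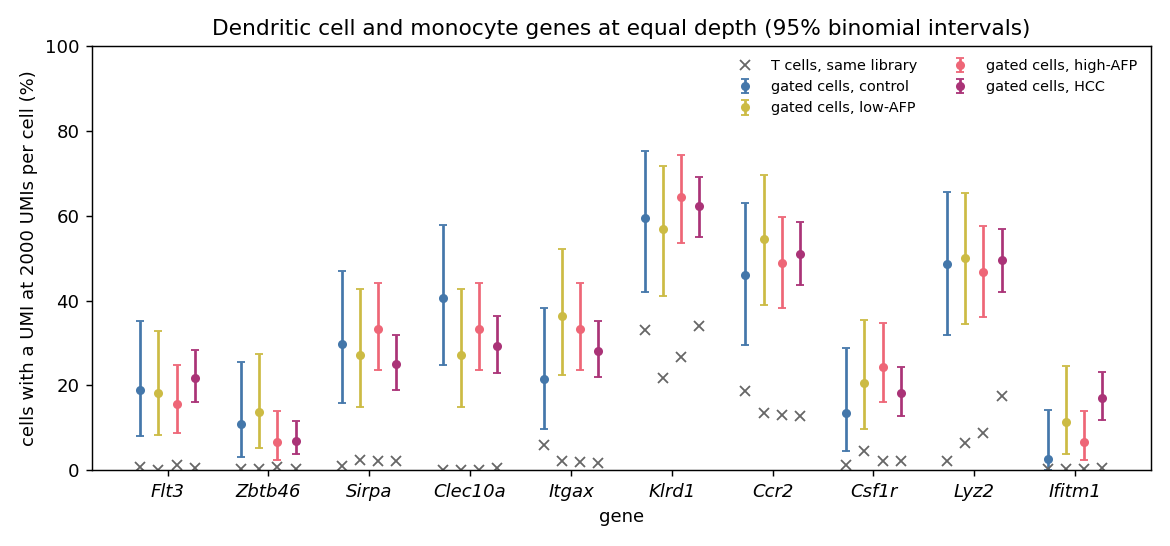
Share of gated cells with a UMI of each gene (vertical axis, percent) after thinning to 2000 UMIs per cell, for 10 genes (horizontal axis) in the 4 libraries. Bars are 95% binomial intervals and crosses are T cells of the same library, which sit near 0 for Flt3, Zbtb46, Clec10a and Ifitm1.

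Monocyte genes stood beside them. Ccr2, the receptor that brings monocytes into tissue, was seen in 45.9%, 54.5%, 48.9% and 51.1% of thinned members. Csf1r, the receptor for macrophage colony-stimulating factor, was seen in 13.5%, 20.5%, 24.4% and 18.1%. At this depth a missing UMI does not show that a gene was off.

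Ifitm1, an interferon-induced membrane protein, marked a minority. It was found in 1 of 37 control, 7 of 44 low-AFP, 16 of 90 high-AFP and 66 of 188 HCC members. Its level was 9.41 CPM (interval 1.94 to 27.5), 71.3 (49.4 to 99.6), 74.3 (56.6 to 95.9) and 138 (123 to 154). Control was lowest and HCC highest, and the intervals of low-AFP and high-AFP overlapped. Thinned to equal depth, the shares were 2.70%, 11.4%, 6.67% and 17.0%, and the interval of control, 0.0684% to 14.2%, reached that of HCC, 11.9% to 23.2%. T cells thinned alike gave at most 0.543%. Its relatives were more even: Ifitm3 was at 2802, 3335, 2852 and 3269 CPM and Ifitm6 at 260, 210, 191 and 236 CPM.

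The genes that led the members over other Ptprc-positive barcodes were Clec10a, H2-Oa, Klrd1, Mcemp1, Cbfa2t3, Ltb4r1, Kctd14, Olfm1, Ccnd1, Flt3, Napsa, Rnd3, Gsn, Trappc5 and Bcl11a, by mean log2 fold over the 4 libraries. Clec10a led with a mean log2 fold of 3.33. H2-Oa, a modulator of peptide loading on class II, followed at 2.53, and Klrd1, the CD94 chain of a lectin-like receptor pair, at 2.27. Klrd1 was not particular to the gate, since 33.1%, 21.7%, 26.6% and 33.9% of thinned T cells carried it against 59.5%, 56.8%, 64.4% and 62.2% of members. As these genes come from the cells that the gate chose, they are a description of it.

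Other gates in the same libraries placed the members. Type 1 dendritic cells (at least 2 UMIs of Xcr1 and Clec9a) numbered 74, 85, 104 and 150, and classical monocytes (at least 3 UMIs of Ly6c2, at least 1 of Ccr2, no Cd209a) numbered 40, 154, 161 and 508. Csf1r in members was 135, 161, 113 and 119 CPM, above the 19.1 to 23.4 CPM of type 1 cells and below the 415 to 531 CPM of monocytes in each of the 4 libraries. Lyz2, the lysozyme of myeloid cells, was between 688 and 3018 CPM in members, while monocytes had 21314 CPM or more. Flt3 went the other way, with 105 to 142 CPM in members, 154 to 226 in type 1 cells and 6.43 to 18.2 in monocytes. No member met the mature migratory gate (at least 2 UMIs each of Ccr7 and Fscn1), and Ccr7 had 0, 0, 15 and 14 UMIs in all.

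One set of members departed from the label. In 37 of 359 members at least 2 UMIs of Siglech, Ccr9 and Cox6a2 were counted, genes that mark plasmacytoid dendritic cells, the interferon-producing lineage. They were 8 of 37 in control (21.6%), 5 of 44 in low-AFP (11.4%), 4 of 90 in high-AFP (4.44%) and 20 of 188 in HCC (10.6%). Of all members, 301 had none of the 3 genes. At least 10 UMIs of them were counted in 8 of the 8, 4 of the 5, 3 of the 4 and 12 of the 20, so that in HCC the range between was filled. Siglech, an inhibitory lectin, was one of the genes that chose these cells, and it had 0, 2, 3 and 12 UMIs in the other members. Irf8, the factor that plasmacytoid and type 1 cells require, was at 3973, 2298, 2164 and 2101 CPM in them and at 37.8, 71.5, 27.2 and 70.1 CPM in the others. Csf1r had 0, 0, 0 and 4 UMIs in these cells. Their H2-Aa, a class II chain, was at 2373, 3355, 4018 and 5524 CPM, below the 9412, 9536, 9438 and 9324 CPM of the other members. Flt3 was present, at 147, 230, 353 and 191 CPM. Clec10a was at 202, 735, 574 and 263 CPM in these cells and at 454, 261, 285 and 288.5 CPM in the others. Klrd1 was at 552, 735, 1678 and 855 CPM in these cells and at 692, 586, 651 and 560 CPM in the others. The set was defined after its genes had been seen in the data. Whether these barcodes are doublets was not tested beyond the doublet scores, which marked 15 of all members.

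**Figure D2:**
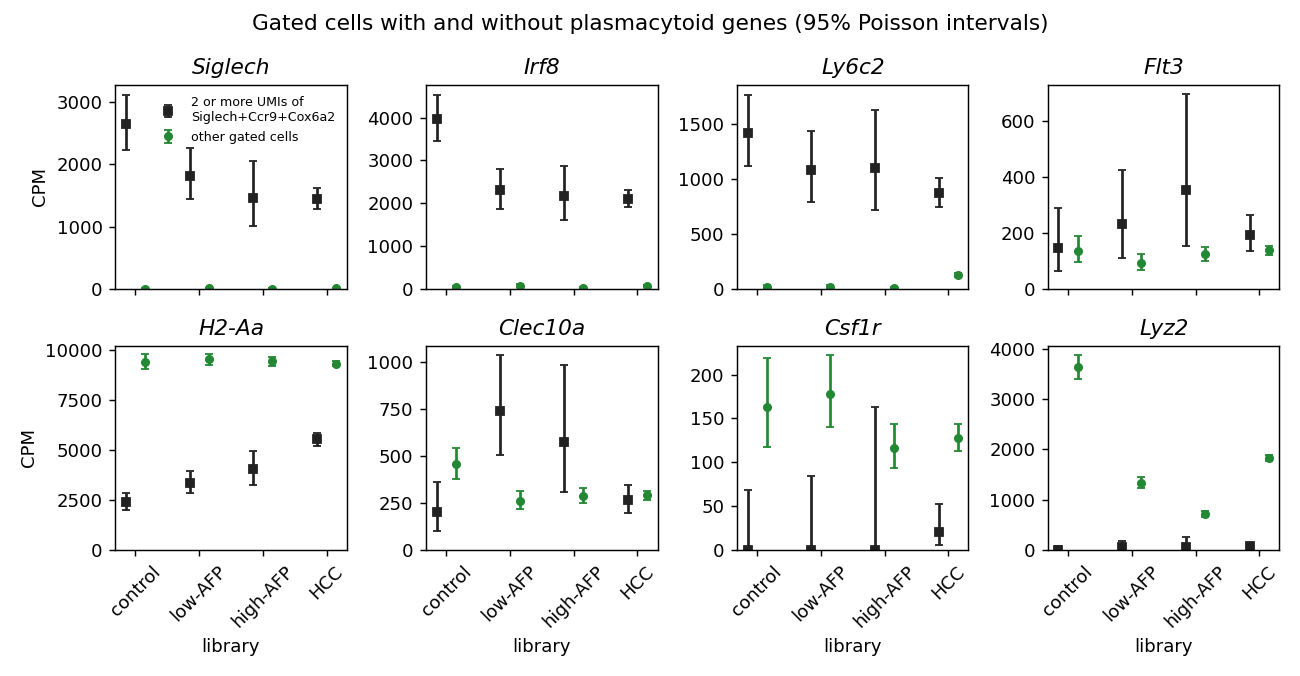
Level in CPM (vertical axes) of 8 genes in gated cells with at least 2 UMIs of Siglech, Ccr9 and Cox6a2 (squares) and in the other gated cells (circles), by library, with 95% Poisson intervals. Irf8 is high in the squares, as is Siglech, which chose them. Csf1r and Lyz2 are high in the circles, Flt3 is in both, and Ly6c2 is high in the squares but also at 126 CPM in the HCC circles.

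The share of members among immune barcodes had overlapping intervals at full depth. Of barcodes with a Ptprc UMI they were 2.31% (1.63% to 3.18%), 2.07% (1.51% to 2.77%), 2.79% (2.24% to 3.43%) and 3.02% (2.61% to 3.47%). Of all kept barcodes, the shares were 0.582%, 0.821%, 1.06% and 2.35%, a scale that the sort and the 1:1 mix set. HCC held 6234 Ptprc-positive barcodes, against 1598 in control. Before these counts the limit on mitochondrial UMIs had removed 42.7%, 42.0%, 26.5% and 8.19% of barcodes, so the shares describe what was left. Thinning to 2000 UMIs before the gate gave 1.47% (0.861% to 2.35%), 0.768% (0.384% to 1.37%), 1.97% (1.42% to 2.66%) and 1.24% (0.956% to 1.59%) from 17, 11, 41 and 62 members. Thinning to 5000 UMIs gave 4.68% (3.27% to 6.48%), 2.52% (1.73% to 3.54%), 4.34% (3.44% to 5.39%) and 4.88% (4.17% to 5.68%). Barcodes under the target depth were left out, 854, 654, 1217 and 1108 at 2000 UMIs and 2912, 1975, 3502 and 4120 at 5000. Ptprc was also read after thinning. That gave 1153, 1433, 2085 and 4981 Ptprc-positive barcodes at 2000 UMIs, and 726, 1270, 1774 and 3296 at 5000. The shares at each depth therefore rest on different barcodes. Low-AFP was lowest at each depth, with an interval apart from that of high-AFP at 2000 UMIs and from that of HCC at 5000. The place of HCC among the libraries moved with depth.

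**Figure D3:**
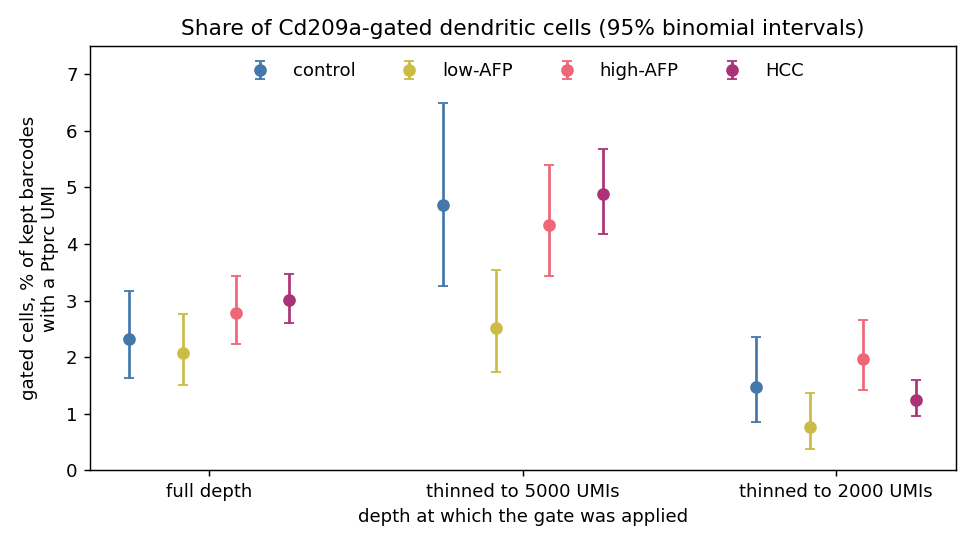
Gated cells as a percentage of kept barcodes with a Ptprc UMI (vertical axis), with the gate applied at full depth, at 5000 and at 2000 UMIs per cell (horizontal axis). Bars are 95% binomial intervals for the 4 libraries, which overlap in the full-depth set. Barcodes under 5000 or 2000 UMIs were left out of the thinned sets.

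Gene levels were compared over the summed UMIs of the members, which were 318714, 476809, 793774 and 2346943. A gene counted as measured if its higher library had 50 CPM or more from 20 or more UMIs, and as different at 2-fold on log2(CPM + 10). Because control and low-AFP held fewer than 50 members, HCC with high-AFP was the main comparison. Of 3057 genes measured there, 59 (1.93%) were higher in HCC and 153 (5%) lower, with a median log2 fold of 0.04. Of the 153 lower genes, 149 were at least 0.5 times as high in barcodes rich in Alb RNA, and all 12 hepatocyte markers were among the lower genes, at a median log2 fold of -4.19. The share of all measured genes at that level in Alb-rich barcodes was not counted, so the 149 have no background beside them. The part of hepatocyte RNA in the members' other differences was not tested.

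The clearest group was the immediate early and dissociation genes, which cells switch on within minutes of a stimulus, tissue digestion included. Of 19 measured, 10 were at least 2-fold higher in HCC and none was lower, with a median log2 fold of 1.14. Fos, a subunit of the AP-1 transcription factor, was at 486 CPM (413 to 569), 331 (282 to 387), 364 (323 to 409) and 1610 (1559 to 1662). HCC stood apart from the other 3 libraries, whose highest was control. The log2 fold of HCC over high-AFP was 2.11, and 93.6% of HCC members had a Fos UMI against 77.8%. Thinned to equal depth, the shares were 76.6% and 45.6%, against 16.9% and 6.84% of T cells in the same libraries.

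Atf3, a stress-induced repressor, was at 107, 65.0, 66.8 and 390 CPM, a log2 fold of 2.38 over high-AFP. Junb, another AP-1 subunit, was at 631, 510, 503 and 1404 CPM. Dusp1, a phosphatase that ends MAP kinase signals, was at 276, 182, 161 and 552 CPM. In each of these the HCC interval lay above those of the other 3 libraries. Ier3, an early response gene, had 9, 3, 4 and 376 UMIs and the largest log2 fold of the list, 3.50. Hspa1a, an inducible heat shock protein, had 1, 2, 11 and 365 UMIs and a log2 fold of 2.79, though reads of Hspa1a and its near-identical copy Hspa1b may be divided between them. Nfkbia, the inhibitor that NF-kappa B induces against itself, was at 264, 216, 142 and 448 CPM. The remaining higher genes of the list were Nr4a1, Klf2 and Hspa1b, at log2 folds of 1.60, 1.14 and 1.49. Egr1, at -0.40, and Jun, at 0.30, stayed under 2-fold.

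Promoter sequence is shown for 4 of these 10 genes, because their 250 bases before the transcription start held one of 5 textbook elements of the early response (RefSeq, GRCm38.p6; all 10 genes matched by symbol). The elements were the cyclic AMP element TGACGTCA, the AP-1 site TGANTCA, the heat shock element core GAANNTTC, the CArG box and the kappa B site, read on both strands. Capitals mark the match, which is the cyclic AMP element in Dusp1, a kappa B site in Fos and Nfkbia and the heat shock core in Hspa1a, and no matches overlapped. Hspa1b, the near-identical neighbour of Hspa1a, held the heat shock core at the same distance and is not printed, and the other 5 genes held none of the elements.
Fos, chr12:85473640-85473889, plus strand: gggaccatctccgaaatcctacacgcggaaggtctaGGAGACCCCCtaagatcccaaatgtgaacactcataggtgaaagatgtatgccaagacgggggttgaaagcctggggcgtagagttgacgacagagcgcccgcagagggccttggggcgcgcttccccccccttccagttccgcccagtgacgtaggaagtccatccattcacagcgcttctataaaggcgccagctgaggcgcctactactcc
Hspa1a, chr17:34972157-34972406, minus strand: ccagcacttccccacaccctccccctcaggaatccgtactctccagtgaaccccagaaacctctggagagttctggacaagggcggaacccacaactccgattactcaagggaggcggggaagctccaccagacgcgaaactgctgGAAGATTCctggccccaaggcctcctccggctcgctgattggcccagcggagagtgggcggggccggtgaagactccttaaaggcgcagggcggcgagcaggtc
Dusp1, chr17:26508473-26508722, minus strand: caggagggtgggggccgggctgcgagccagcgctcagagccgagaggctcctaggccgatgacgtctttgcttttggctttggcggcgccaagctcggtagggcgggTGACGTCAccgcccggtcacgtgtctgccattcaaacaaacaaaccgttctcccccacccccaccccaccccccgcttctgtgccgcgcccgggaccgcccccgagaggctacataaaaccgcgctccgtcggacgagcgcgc
Nfkbia, chr12:55492648-55492897, minus strand: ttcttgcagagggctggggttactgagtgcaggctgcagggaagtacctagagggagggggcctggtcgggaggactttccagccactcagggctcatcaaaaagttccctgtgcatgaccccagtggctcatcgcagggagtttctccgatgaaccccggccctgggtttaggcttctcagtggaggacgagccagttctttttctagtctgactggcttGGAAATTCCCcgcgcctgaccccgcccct
Over 27025 promoters of the same length, 1.62% held the cyclic AMP element, 4.78% a kappa B site, 6.87% an AP-1 site, 1.40% a CArG box and 6.78% the heat shock core. These matches describe letters, and a missing match says only that the letters were not in this window.

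The immediate early group was also higher in other cells of the HCC library. In classical monocytes 11 of 19 measured were at least 2-fold higher in HCC than in high-AFP and none was lower, at a median log2 fold of 1.09, where 1.51% of 3174 genes were higher. In the type 1 gate 6 of 20 were higher and 1 was lower, at a median of 0.66, where 2.91% of 3025 genes were higher. In the mature migratory gate, with 26 and 48 cells, 10 of 18 were higher, where 5.72% of 2220 genes were. Fos had log2 folds of 1.25 in type 1 cells, 2.05 in mature migratory cells and 1.74 in monocytes. Those of Atf3 were 0.80, 1.65 and 2.11 in the same order. Library, tumour origin and any difference in cell preparation cannot be told apart in this design. The limit on mitochondrial UMIs had removed 26.5% of high-AFP barcodes and 8.19% of HCC barcodes. The part of this difference in the folds was not tested beyond the setting at 15% mitochondrial UMIs.

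**Figure D4:**
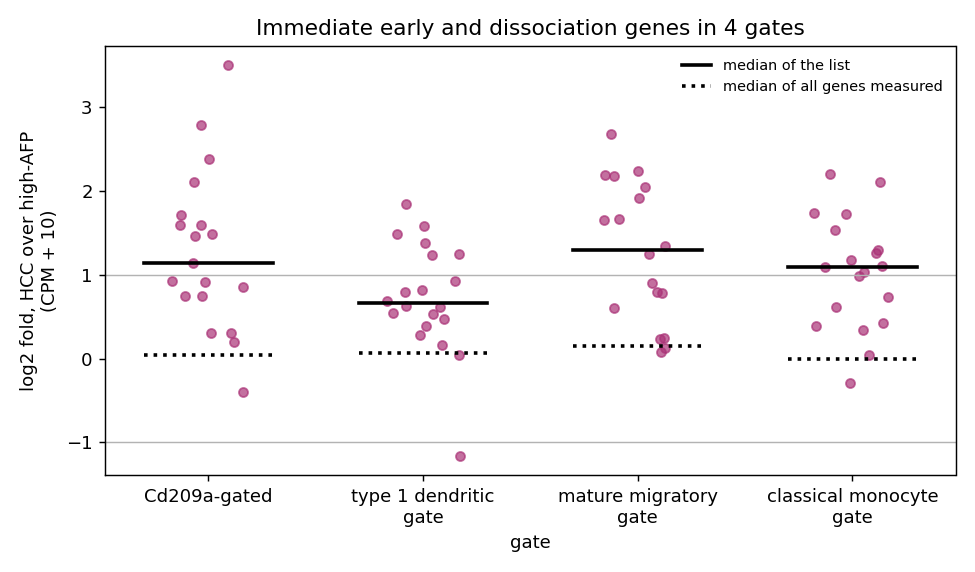
Log2 fold of HCC over high-AFP on CPM + 10 (vertical axis) for each measured immediate early and dissociation gene in 4 gates (horizontal axis). Solid lines are list medians, 1.14 in the Cd209a gate and 1.09 in monocytes, dotted lines are medians of all genes measured, and grey lines mark 2-fold.

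Inflammatory mediators followed. Il1b, the inflammasome-released cytokine, was at 194 CPM (149 to 249), 430 (373 to 493), 207 (176 to 241) and 829 (792 to 866). HCC was highest, low-AFP second, and control and high-AFP overlapped. The log2 fold of HCC over high-AFP was 1.95, and 131 of 188 HCC members carried it against 40 of 90. Of 3 cytokines measured it alone passed 2-fold, while Il12b, Il23a and Il10 had 0 UMIs in every library, which allows up to 9.41, 6.29, 3.78 and 1.28 CPM at a limit of 3 UMIs. Of 13 chemokines and receptors measured, 4 were higher in HCC and 1 was lower, with a median log2 fold of 0.71.

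Ccl4, an inflammatory chemokine, was at 279, 138, 23.9 and 245 CPM. HCC was high against high-AFP, at a log2 fold of 2.91, but no higher than control, and in control 81 of its 89 UMIs were in the plasmacytoid-gene cells. Outside those cells Ccl4 was at 30.3 CPM (13.1 to 59.6), 127, 22.1 and 177 (160 to 196), so that HCC was above control there. Ccl3, a related chemokine, was at 47.1, 6.29, 12.6 and 84.4 CPM, and Cxcl10, a ligand of Cxcr3, at 100, 39.9, 13.9 and 65.6 CPM. The fourth was Cx3cr1, the fractalkine receptor, at the threshold with a log2 fold of 1.00, and at 0.56 in members with a Flt3 UMI. Cxcl9, the sister of Cxcl10, was lower in HCC, at 47.3 CPM against 180 in high-AFP, but 70 of its 143 high-AFP UMIs were in 1 cell. Beyond the lists, Ptgs2, the inducible prostaglandin synthase, had 3, 0, 1 and 137 UMIs. Socs3, a feedback inhibitor of cytokine signals, was at 53.3, 33.6, 39.1 and 220 CPM, and Gadd45b, a stress gene, at 53.3, 33.6, 17.6 and 136 CPM. Among costimulatory ligands, Tnfsf9, the 4-1BB ligand, had 3, 3, 13 and 185 UMIs and was the 1 of 8 measured that passed, at a log2 fold of 1.75.

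**Figure D5:**
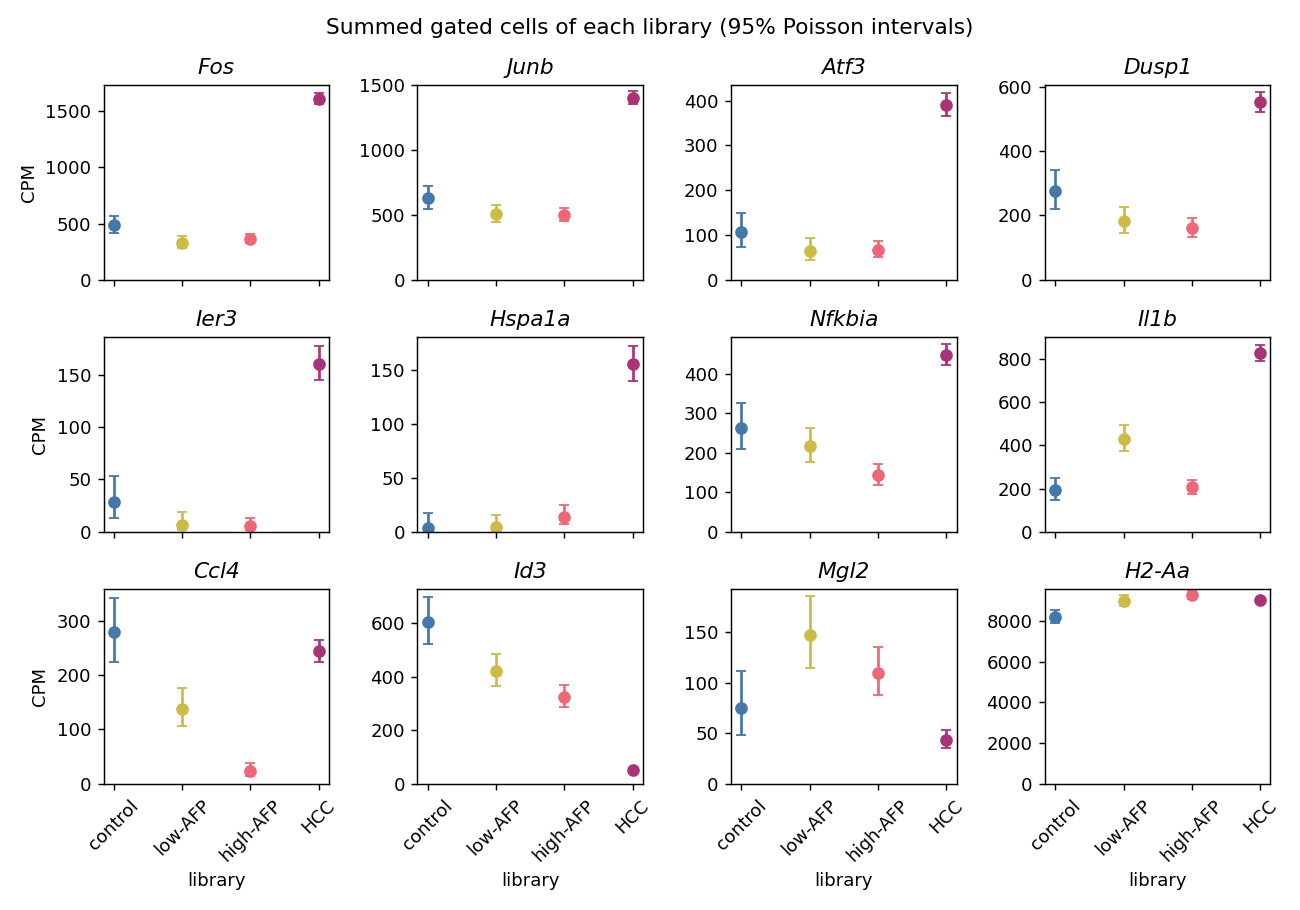
Level in CPM (vertical axes) of 12 genes in the summed gated cells of each library (horizontal axes), with 95% Poisson intervals. Fos, Atf3, Junb and Il1b are highest in HCC, Id3 is lowest there, and H2-Aa is between 8211 and 9284 CPM in the 4 libraries.

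Few genes named by rank, which were at least 2 times their level in Alb-rich barcodes, were 2-fold lower in HCC than in high-AFP. Id3, an inhibitor of helix-loop-helix factors, was at 606 CPM (523 to 697), 422 (365 to 484), 326 (288 to 368) and 49.9 (41.2 to 59.7). HCC was lowest by far, and the log2 fold of HCC over high-AFP was -2.49. It was also lower in HCC in the type 1 gate, at a log2 fold of -1.48, and in the mature migratory gate, at -1.73, and under 2-fold in monocytes, at -0.89. Mgl2 was at 75.3, 147, 110 and 43.5 CPM, a log2 fold of -1.16. Axl, a receptor for apoptotic cells, was at 81.6, 69.2, 68.0 and 26.0 CPM, a log2 fold of -1.12. In members with a Flt3 UMI both fell short of 2-fold, at -0.71 and -0.88. The next genes by rank, Plxnd1, Sdc3, Xpo1, Wdfy4 and Dennd5a, had log2 folds of -0.92 to -0.81.

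Antigen presentation genes did not pass in either direction. Of 11 class II genes measured none differed 2-fold, at a median log2 fold of -0.04. H2-Aa was at 8211, 8972, 9284 and 9010 CPM, and Ciita, the class II transactivator, at 380, 354, 462 and 407 CPM. Of 15 class I genes and 14 lysosomal genes none passed, at medians of 0.06 and 0.01. Of 16 interferon-stimulated genes none was higher and 2, Iigp1 and Ifit1, were lower, at -2.05 and -1.03. Without members over 2% hepatocyte UMIs Iigp1 was at -1.29. Ifit1 was under 2-fold in several settings, with a range of -1.28 to -0.96.

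In the type 2 list, 1 of 15 measured was higher (Tnfsf9) and 1 lower (Mgl2). In the monocyte list, 3 of 15 were higher, Ly6c2, Lyz2 and Cx3cr1, and 1 was lower, Hp, a secreted haemoglobin-binding protein that hepatocytes make. Ly6c2, a surface protein of inflammatory monocytes and of plasmacytoid cells, was at 254, 113, 40.3 and 188 CPM. Without the plasmacytoid-gene cells it was at 15.1, 16.2, 9.08 and 126 CPM, so that HCC alone stood high, and the log2 fold over high-AFP was 2.83 in place of 1.97. In that setting 37 of 168 HCC members carried it and 4 of 86 in high-AFP, at full depth. Over all members thinned to equal depth, the shares were 13.3% (8.79% to 19.0%) in HCC and 5.56% (1.83% to 12.5%) in high-AFP. These intervals overlapped. Lyz2 was highest in control, at 3018 CPM, where 336 of its 962 UMIs were in 1 cell, and was at 1212, 688 and 1682 CPM in the others. Its log2 fold of HCC over high-AFP was 1.28, and 0.82 without the cycling members.

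Some signals came mostly from single barcodes. S100a8, a neutrophil alarmin, had 160 UMIs in HCC, 133 of them in 1 cell, and 0 in the other 3 libraries, and 1 HCC cell held 137 of 220 Spp1 UMIs. Several other cell classes were sparse: the 8 Kupffer cell markers summed to 21.3 to 56.7 CPM, the 8 B cell markers to 12.6 to 28.2 and the 10 T cell markers to 69.9 to 98.3. The 6 cholangiocyte markers summed to 53.3, 109, 171 and 199 CPM, and 1 HCC cell held 200 of the 467 UMIs there. Endothelial markers summed to 565, 334, 152 and 75.0 CPM, and 1 cell held 86 of 180, 76 of 159, 53 of 121 and 9 of 176 of these UMIs. Red cell markers were higher in HCC, at 3.14, 2.10, 6.30 and 112 CPM, with a median of 1 UMI per HCC cell and at most 11, and their part in the results was not tested.

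The comparisons with control and low-AFP rest on 37 and 44 members, under a minimum of 30 that was set after the numbers were known. They share libraries and are not independent of each other. In low-AFP against control, 50 of 2966 genes were higher (1.69%) and 115 lower (3.88%). In high-AFP against control, 82 of 2956 were higher (2.77%) and 129 lower (4.36%), and in HCC against control 55 of 2938 (1.87%) and 162 (5.51%). The lower genes named by rule were led in all 3 by Klk1, which had 101, 11, 7 and 41 UMIs and not 1 outside the plasmacytoid-gene cells. Siglech, at 452, 170, 45.4 and 124 CPM, Ccr9, at 245, 79.7, 26.5 and 55.4 CPM, and Irf8, at 709, 275, 88.2 and 238 CPM, were lower than control in all 3. In control, Siglech and Ccr9 had 0 UMIs and Irf8 had 10 outside the 8 plasmacytoid-gene cells. Without the plasmacytoid-gene cells the lower genes numbered 69, 60 and 99.

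Il4ra, a chain of the interleukin-4 receptor, was at 86.0, 56.7 and 51.6 CPM outside control, where it had 7 UMIs. It was under 2-fold in HCC against control. Ltb, lymphotoxin beta, was at 37.6 CPM in control (12 UMIs) and at 103, 118 and 133 CPM in the others. Epcam, an adhesion protein that is also a cholangiocyte marker, was at 37.6, 90.2, 120 and 81.0 CPM, and under 2-fold in HCC against control. In HCC against control, 6 of 20 immediate early genes were higher and none was lower, at a median log2 fold of 0.82, and Il1b and Hspa1a had log2 folds of 2.04 and 3.66.

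Cycling members were fewest in low-AFP. At least 2 UMIs of Mki67, Top2a and Birc5, genes of dividing cells, were counted in 4 of 37 control, 2 of 44 low-AFP, 13 of 90 high-AFP and 21 of 188 HCC members, and none of these carried the plasmacytoid genes. Mki67 was at 141, 8.39, 66.8 and 82.7 CPM, lowest in low-AFP. At full depth 16.2%, 6.82%, 15.6% and 16% of members had a Mki67 UMI. After thinning to equal depth these shares were 10.8%, 2.27%, 3.33% and 2.66%, with overlapping intervals. There low-AFP did not stand apart from high-AFP and HCC, and control was highest. Of 11 cell cycle genes measured, 9 were lower in low-AFP than in control, at a median log2 fold of -2.51, and 6 of 12 were higher in high-AFP than in low-AFP, at 1.53. High-AFP against low-AFP gave 117 of 3094 genes higher (3.78%) and 32 lower (1.03%), and 99 of the 117 were at least 0.5 times as high in Alb-rich barcodes. The share of all measured genes at that level was not counted here either. The shares of cycling cells had overlapping intervals, from 0.555% to 15.5% in low-AFP and from 3.03% to 25.4% in control.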

How the data were processed

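Libraries were single-cell 3' RNA from mouse liver, 4 in all and 1 per group. The authors deposited matrices of whole UMI counts over 31053 genes. Cell Ranger, R 3.0, Seurat 3 and the build mm9 are named in the submitters' processing notes, and Cell Ranger 3.0.2 per the file headers. No coordinate of the files was used.

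Kept barcodes had 300 or more genes, 500 or more UMIs and no more than 30% of UMIs from mitochondrial genes, which left 6359, 5359, 8477 and 8004 (library totals of 71957655, 80505127, 97393862 and 65326793 UMIs) for control, low-AFP, high-AFP and then HCC. The mitochondrial limit removed unequal parts of the libraries, 42.7%, 42.0%, 26.5% and 8.19% of barcodes in the same order. The effect of this difference on shares and gene levels was not tested beyond the setting at 15% mitochondrial UMIs. Members' UMIs were summed per library and scaled to CPM over nuclear-encoded genes. The 2-fold rule used a pseudocount of 10 CPM and was tested on simulated data. Shares have Clopper-Pearson intervals and CPM exact Poisson intervals. Named genes were the 8 most higher and 8 most lower per comparison with a UMI in at least 10% of members, at most 25% of UMIs in 1 cell and at least 2 times the CPM of Alb-rich barcodes, plus the largest folds of 33 lists; not all are printed. A result that combined several monocyte genes is not reported here. List genes were counted whatever their hepatocyte level.

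Doublets were kept, as the gate has no doublet step. Scrublet (scanpy 1.11.5) marked 12, 8, 4 and 0 barcodes automatically, under 0.5%, so an alternative left out the 323, 230, 575 and 513 of highest score. The members, gate and lists were chosen with earlier results of these data known. Python 3.11.15, numpy 2.4.6, scipy 1.17.1 and pandas 2.3.3 were used.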

Additional observations from a re-analysis of the deposited data

How the results depend on the processing

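No paired analysis was possible because each group was 1 library. None of the 16 genes named by rank in HCC with high-AFP, and no list median past 2-fold there, reversed under the alternatives run, although 57 of the 192 recomputed folds of those genes were under 2-fold. Of the 57, 55 were of Plxnd1, Sdc3, Xpo1, Wdfy4 and Dennd5a, which were under 2-fold as reported. Among genes under 2-fold as reported, Ly6d went from 0.98 to -1.06 without members with plasmacytoid genes and Tm4sf4 from 0.15 to -1.06 without doublets. The share of members among Ptprc-positive barcodes was 1.47%, 0.768%, 1.97% and 1.24% (control first, then low-AFP, high-AFP and HCC) after thinning to 2000 UMIs, and 4.68%, 4.34% and 4.88% in control, high-AFP and HCC at 5000. Barcodes under either depth were left out there. With 1 Cd209a UMI allowed the share was 3.62% in high-AFP and 3.74% in HCC. In HCC it was 2.60% with at least 3 Cd209a UMIs and 2.57% with no C1q UMI.

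In HCC with high-AFP, dropping the CPM minimum gave 92 genes higher and 289 lower. Lower genes numbered 94 at 15% mitochondrial UMIs and 81 without members over 2% hepatocyte UMIs. In HCC with control, higher genes numbered 158 without the CPM minimum, 90 with median-of-ratios factors and 88 in Flt3-positive members.

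In high-AFP with control, higher genes numbered 174 without the CPM minimum, 32 at 15% mitochondrial UMIs, 144 in Flt3-positive members, 45 without the deepest member of each library, 49 without doublets, 47 with equal weights and 35 without the hepatocyte-rich members. In high-AFP with low-AFP, the same settings gave 219, 43, 72, 68, 61 and 36, with 117 as reported and no such move in Flt3-positive members. Its lower genes numbered 53 at a pseudocount of 1 CPM, 56 in Flt3-positive members and 19 without the deepest members. Without members with plasmacytoid genes, lower genes numbered 69, 60 and 99 in low-AFP, high-AFP and HCC with control. The cause of these moves was not tested.

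All 276 recomputed list medians in HCC with high-AFP kept their side of 2-fold. Fos, Atf3, Ier3, Il1b and Id3 stayed past 2-fold in each setting, with log2 folds of 2.04 to 2.17, 2.29 to 2.56, 3.32 to 4.74, 1.74 to 2.34 and -2.69 to -2.14. Mgl2 and Axl did not in Flt3-positive members. The log2 fold of Cx3cr1 ran from 0.56 to 1.11, that of Lyz2 from 0.82 to 1.97, that of Ifit1 from -1.28 to -0.96 and that of Iigp1 from -2.75 to -1.28. Spp1 was at 0.00 without doublets. The thinning to 5000 UMIs, the minimum of 30 members and the settings without plasmacytoid, cycling or hepatocyte-rich members were chosen after seeing the data. Depth limits what low counts can show: 1 UMI is 3.14 CPM in control members and 0.426 CPM in HCC.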
